A study of Mus musculus with 6 samples.

Results

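The CD300 receptors are a family of immunoglobulin-domain proteins of the leukocyte surface, and 6 of their genes were described here in splenic B cells: Cd300lf, Cd300a, Cd300lb, Cd300ld, Cd300c and Cd300lg. They make up 6 of the 19938 genes measured. The members were chosen by family name with the difference between p80HT and WT already known, above all the higher level of Cd300lf in p80HT, so their differences between the groups are given as a description with no test. Each gene was read at the probeset that names it alone, and all 6 had 1 such probeset. The question was whether Cd300lf was higher by itself or together with its relatives.

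RNA came from 3 p80HT mice and 3 WT littermates, each 1 year old and each hybridised to its own Affymetrix Mouse Gene 1.0 ST array. The transgene holds the human p80HT coding sequence, a truncated form of NF-κB2 found in lymphoma, driven by the H-2Kb promoter and the immunoglobulin μ chain enhancer, which express it in both B and T lymphocytes. Both groups share a C57BL/6J x SJL/J background, and the p80HT mice had M-protein, a monoclonal immunoglobulin, in their serum. Cells were taken from spleen on magnetic beads through B220, a long form of CD45 present on mouse B cells. Values are log2 signals, and differences are p80HT minus WT on that scale.

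CD300 receptors bind lipids of the cell membrane, such as phosphatidylserine and ceramide, and are best known from macrophages, granulocytes, mast cells and dendritic cells. Inhibitory members carry tyrosine motifs in a long cytoplasmic tail that recruit phosphatases such as SHP-1. Activating members have a short tail and signal through the adaptors DAP12 or FcRγ. Most of the mouse genes lie side by side on chromosome 11, whereas Cd300lg lies elsewhere on the same chromosome.

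Promoters are shown for the 3 members whose p80HT arrays all lay above the WT arrays. RefSeq windows (GRCm38.p6, 250 bases before to 50 bases after the start site) were matched for 5 of the 6 members, and Cd300lg had no entry. The windows are chr11:115133943-115134242 on the minus strand for Cd300lf, chr11:114889791-114890090 on the plus strand for Cd300a and chr11:114989837-114990136 on the minus strand for Cd300ld. Capitals mark matches to GAGGAAGT, a motif bound by the myeloid and B cell factor PU.1, or to the κB motif, searched on both strands.
Cd300lf: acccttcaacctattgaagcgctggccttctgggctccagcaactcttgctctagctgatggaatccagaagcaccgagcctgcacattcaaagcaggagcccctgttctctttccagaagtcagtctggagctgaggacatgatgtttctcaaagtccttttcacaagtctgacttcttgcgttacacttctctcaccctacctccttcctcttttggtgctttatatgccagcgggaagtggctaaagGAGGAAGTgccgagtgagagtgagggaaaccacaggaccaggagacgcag
Cd300a: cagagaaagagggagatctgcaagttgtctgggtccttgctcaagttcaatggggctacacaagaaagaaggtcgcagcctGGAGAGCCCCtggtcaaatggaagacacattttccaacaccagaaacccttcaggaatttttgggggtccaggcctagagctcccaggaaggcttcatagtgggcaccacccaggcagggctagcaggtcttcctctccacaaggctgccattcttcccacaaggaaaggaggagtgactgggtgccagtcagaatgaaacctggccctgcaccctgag
Cd300ld: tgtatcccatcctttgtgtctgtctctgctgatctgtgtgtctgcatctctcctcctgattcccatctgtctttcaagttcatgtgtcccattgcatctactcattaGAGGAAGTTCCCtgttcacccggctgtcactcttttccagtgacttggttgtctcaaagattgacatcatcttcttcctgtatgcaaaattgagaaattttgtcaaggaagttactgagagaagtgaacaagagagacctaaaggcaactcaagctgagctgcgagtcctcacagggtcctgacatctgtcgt
In the Cd300lf window GAGGAAGT began at the start site itself, and no κB motif was found. In that of Cd300a a κB motif began 169 bases before the start site. In that of Cd300ld GAGGAAGT began 143 bases before the start site and overlapped a κB motif that began at 141 bases, so the capitals run over both. Neither motif was found in the windows of Cd300lb and Cd300c, nor in those of the further CD300 genes Cd300e and Cd300c2. The windows of Cd300ld3, Cd300ld4 and Cd300ld5 held both. Over all 32851 windows, GAGGAAGT was found in 3.2% and the κB motif in 8.46%. A match describes the letters of the window and was not read as a binding site.

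The array of p80HT replicate 3 stood apart from the rest. Across genes, which are not independent replicates, it correlated at 0.914 to 0.925 with the other 5 arrays, which correlated with each other at 0.981 or above. Of 8 salivary and lacrimal gland genes 7 were highest on it, beside 27.8% of all genes. The summed signal of the 8 was 16 (log2) there against 9.24 to 9.57 on the other 5. The members' differences and the counts over gene lists are therefore also given without it, as is the difference of any other named gene that it moved by over 1.5 times. Of the B cell markers, Ms4a1, which encodes CD20, was between 12.99 and 13.12 in WT and at 13.03, 12.88 and 11.77 in p80HT. Cd79a was between 12.10 and 12.47 in WT and at 12.15, 12.06 and 10.81 in p80HT. Pax5 was between 12.02 and 12.31 in WT and at 12.00, 11.65 and 10.66 in p80HT. RMA values carry no detection call, so the 95th percentile of olfactory receptor genes on the same array, between 7.07 and 7.68, served as the background level.

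Cd300lf, an inhibitory receptor also known as CLM-1 and a sensor of phosphatidylserine, had the largest difference of the 6 members. It was at 8.44, 8.33 and 8.36 in WT replicates 1, 2 and 3, and at 9.75, 9.69 and 9.49 in p80HT replicates 1, 2 and 3. The lowest p80HT array lay 1.05 above the highest WT array. Group means were 8.38 ± 0.05 in WT and 9.64 ± 0.14 in p80HT (SD, n = 3), a difference of 1.27, or 2.40-fold. Leaving out any 1 array gave 1.21 to 1.34, and 1.34 was the value without p80HT replicate 3. Cd300lf was above background on all 6 arrays. Among all genes on an array it stood between the 58.5th and 60.7th percentile in WT and between the 75.3rd and 81.4th in p80HT, and 170 genes had a larger rise.

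Cd300a, the other inhibitory member, was also higher on every p80HT array, by a smaller amount. Its WT arrays were at 8.73, 8.55 and 8.63 and its p80HT arrays at 9.09, 8.99 and 9.03. The groups did not overlap, with a gap of 0.26. Means were 8.64 ± 0.09 and 9.04 ± 0.05 (SD, n = 3), a difference of 0.40 or 1.32-fold, which lies under the 1.5-fold of the study's threshold. The difference was 0.40 without p80HT replicate 3 and 0.36 to 0.44 without any 1 array. In both inhibitory members p80HT replicate 3 lay close to the other p80HT mice, at 1.11 above the WT mean against 1.38 and 1.31 for Cd300lf, and at 0.39 against 0.46 and 0.35 for Cd300a.

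**Figure D1:**
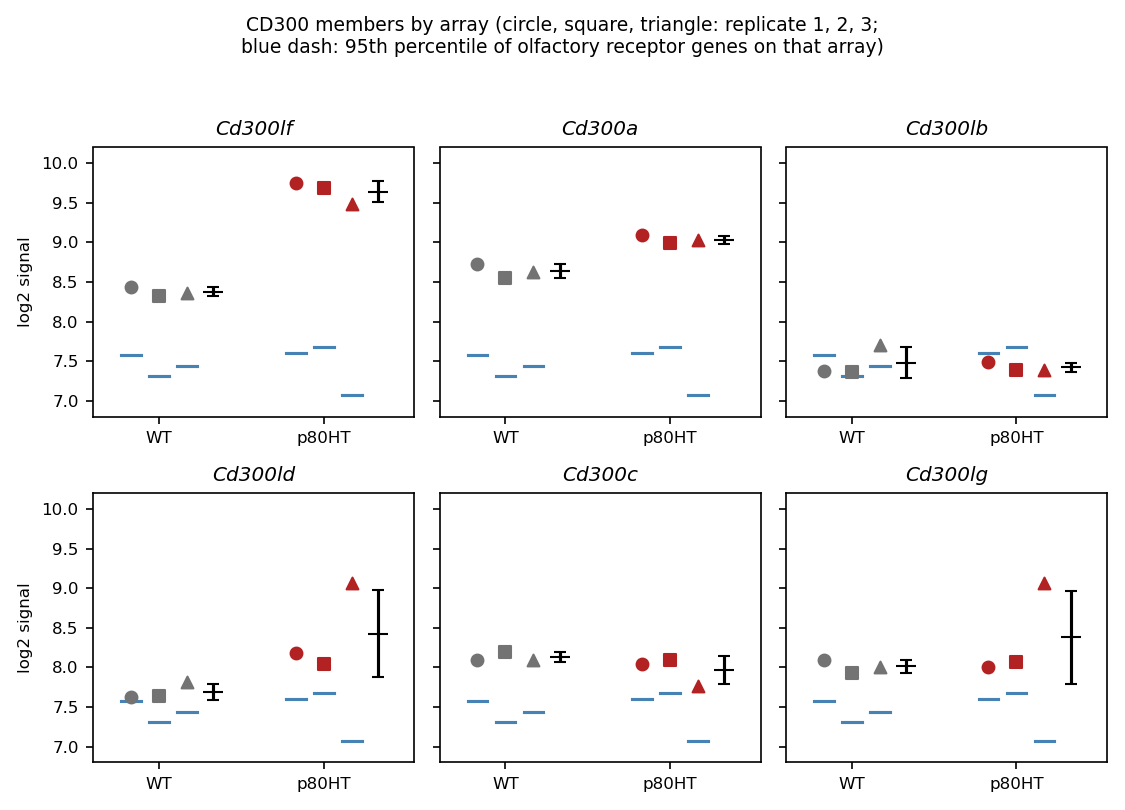
Log2 signal (vertical axis) of the 6 CD300 members in WT and p80HT, with each mouse as a point, the mean and SD of the group (n = 3) and the background level of each array as a blue dash. Cd300lf and Cd300a are higher on all 3 p80HT arrays, Cd300ld and Cd300lg are highest on p80HT replicate 3 (9.06 for both), and Cd300lb lies near background.

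The 3 activating members each had a pattern of their own. Cd300lb, which pairs with DAP12, was at 7.38, 7.36 and 7.71 in WT and at 7.49, 7.39 and 7.39 in p80HT. The groups overlapped, and the signal was above background on only 3 of 6 arrays. Its difference was -0.06, or -0.04 without p80HT replicate 3, and it ranged from -0.12 to 0.05 without any 1 array, so neither a direction nor a level can be given.

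Cd300ld, an activating receptor that uses FcRγ, was at 7.63, 7.64 and 7.81 in WT and at 8.18, 8.04 and 9.06 in p80HT. All p80HT arrays lay above the WT arrays, by a gap of 0.24, but p80HT replicate 3 was far above the other pair. The means of 7.69 ± 0.10 and 8.43 ± 0.55 (SD, n = 3) differed by 0.74, and without p80HT replicate 3 by 0.42. The smallest margin over background was 0.05. A large share of the mean difference therefore came from 1 array, and the WT level was close to the background.

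Cd300c, the activating receptor CLM-6, was at 8.09, 8.20 and 8.09 in WT and at 8.04, 8.09 and 7.76 in p80HT. Every p80HT array was below every WT array, but by a gap of only 0.0012. Means of 8.12 ± 0.06 and 7.96 ± 0.18 (SD, n = 3) gave a difference of -0.16, and -0.06 without p80HT replicate 3. The lower mean in p80HT thus rested mostly on that array.

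Cd300lg, or nepmucin, is a member of the family found on endothelium, where it takes part in lymphocyte binding. It was at 8.10, 7.93 and 8.01 in WT and at 8.01, 8.07 and 9.06 in p80HT. Only p80HT replicate 3 lay outside the WT range. The difference was 0.37, with means of 8.01 ± 0.09 and 8.38 ± 0.59 (SD, n = 3), and 0.03 without that array. Of 19 endothelial genes 13 were also highest on p80HT replicate 3, beside 27.8% of all genes. The summed signal of the 19 was 13.41 there, 12.31 to 12.37 in WT, and 12.17 and 12.21 in p80HT replicates 1 and 2. Pecam1, which B cells also express, weighs heavily in this sum as the brightest endothelial gene in WT. It was at 11.09 to 11.33 in WT and at 10.49, 10.48 and 9.96 in p80HT. The median difference of the list was 0.55, or 0.19 without p80HT replicate 3. Of the other defining endothelial markers, Cdh5 was at 9.77 and Emcn at 9.63 on p80HT replicate 3, against at most 7.82 and 6.00 on the others. The part of endothelial RNA in the Cd300lg value was not tested.

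Counted over the family, 3 of 6 members had every p80HT array above every WT array, where 8.86% of all genes did, and 1 of 6 had every p80HT array below, where 11.9% did. The study's threshold of at least 1.5-fold and p under 0.01 was applied here to unadjusted limma p-values. By it 1 member was called higher (Cd300lf) beside 1.22% of all genes, and 0 lower beside 0.968%. Without p80HT replicate 3 the member counts were again 1 and 0, beside 2.01% and 1.45%. Since the members were chosen on this contrast, nothing is read from these shares. Differences between members were likewise not tested. The p-values given for other genes set the group difference against the spread between these mice, which limma moderates over all genes. With 3 mice in each group the smallest p of an exact permutation test is 0.1.

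Of the rest of the gene cluster, 2 further CD300 genes had a probeset of their own. Neither passed the threshold with all 6 arrays, and both were far higher on p80HT replicate 3 than elsewhere. Cd300e, an activating receptor of monocytes, was at 8.45, 8.03 and 8.18 in WT and at 8.53, 9.34 and 11.06 in p80HT. Its difference was 1.42 (adjusted p = 0.468, limma). It was called higher without p80HT replicate 3, at 0.71, and without p80HT replicate 1, at 1.98. Cd300c2, an activating relative of Cd300c, was at 8.30, 7.97 and 8.18 in WT and at 8.29, 8.60 and 9.84 in p80HT. Its difference of 0.76 (adjusted p = 0.547, limma) was 0.29 without that array. The groups of Cd300c2 overlapped, and those of Cd300e were apart by a gap of 0.08.

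A pair of probesets is shared by Cd300ld3, Cd300ld4 and Cd300ld5, which cannot be told apart on this array. The promoter windows of Cd300ld4 and Cd300ld5 were identical over 300 of 300 bases, and that of Cd300ld3 matched Cd300ld4 at 285. One probeset was at 9.58, 8.92 and 9.45 in WT and at 9.79, 10.19 and 10.86 in p80HT, a difference of 0.96. Its partner was at 9.29, 8.94 and 9.27 in WT and at 9.73, 10.06 and 10.88 in p80HT, a difference of 1.06. Without p80HT replicate 3 these were 0.67 and 0.73. Both were thus higher on all p80HT arrays, with the largest value on p80HT replicate 3, as for Cd300ld. Probesets that name several genes were outside the fit and have no test.

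**Figure D2:**
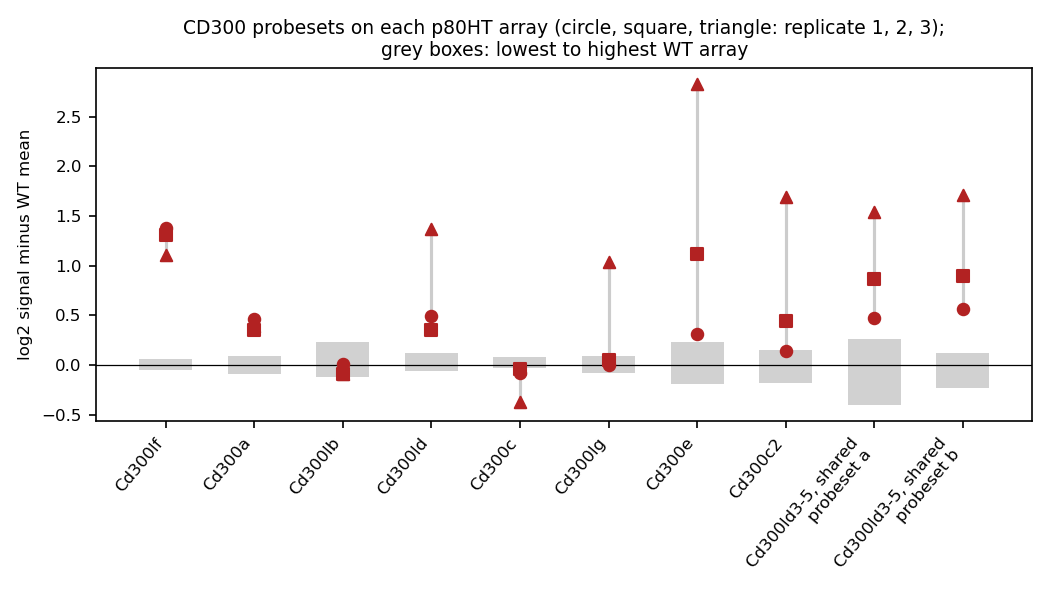
Log2 signal minus the WT mean (vertical axis) for each CD300 probeset on the 3 p80HT arrays, with the WT range as a grey box. Cd300lf and Cd300a have their 3 points close together, whereas Cd300ld, Cd300lg, Cd300e, Cd300c2 and both shared probesets have p80HT replicate 3 (triangle) highest.

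The genes around the cluster were measured for comparison, and 0 of 7 passed the threshold, of which 1 (Gprc5c) had an unadjusted limma p under 0.05. Rab37, a small GTPase of vesicle transport whose span holds Cd300lf in the RefSeq table, was at 8.53, 8.63 and 8.42 in WT and at 8.31, 8.55 and 8.57 in p80HT (difference -0.05, adjusted p = 0.973, limma, and -0.10 without p80HT replicate 3). Its groups overlapped while those of Cd300lf did not. At one end of the cluster Gprc5c, an orphan receptor, differed by 0.56 without passing. Differences were 0.31 for Tmem104, 0.05 for Btbd17, 0.01 for Slc9a3r1, -0.12 for Nat9 and -0.18 for Gpr142, which was at background on all arrays. When p80HT replicate 3 was left out these were 0.20, 0.30, 0.03, 0.01 and 0.03, so the signs of Nat9 and Gpr142 rested on that array.

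The genes with the pattern most like that of each member were ranked by Pearson's r over the 6 arrays, which share the group difference and p80HT replicate 3, so r is a description. For Cd300lf, among 7151 genes with at least 50% of its range, these were Afdn, which encodes the junction protein afadin (0.999), Eml6 (0.995), Gm5486 (0.995), Dkkl1 (0.992) and Pmepa1 (0.990). All 5 were higher on every p80HT array, which follows from their choice by a high r with Cd300lf. Afdn was at 7.76, 7.76 and 7.68 in WT and at 9.44, 9.35 and 9.09 in p80HT. For Cd300a they were Paqr9 (0.993), Crip1 (0.992) and Fbxw17 (0.992). For Cd300ld they were Rnf144b (0.998), Rora (0.997) and Zbp1 (0.997), and for Cd300c Snora62 (0.998), Acp1 (0.998) and Albfm1 (0.997). For Cd300lg they were Cxcl14, Adgrf5 and Pdgfrb (0.999 each), of which Pdgfrb encodes a growth factor receptor of pericytes and fibroblasts. For Cd300lb, close to background, they were Flacc1 (0.964), Hspa1l (0.961) and Gm5886 (0.950).

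The adaptors through which activating members signal did not pass the threshold. Tyrobp, which encodes DAP12, was at 10.78, 10.83 and 11.11 in WT and at 11.09, 10.91 and 12.22 in p80HT, a difference of 0.50 that was 0.09 without p80HT replicate 3. Fcer1g, which encodes FcRγ, differed by 0.82 (adjusted p = 0.458, limma), and by 0.45 without that array. Both were highest on the same array as Cd300ld, Cd300e and Cd300c2. Hcst, which encodes DAP10, differed by 0.04, and by -0.10 without p80HT replicate 3.

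Of the phosphatases recruited by inhibitory tails, Ptpn6, which encodes SHP-1, differed by -0.29, Ptpn11, which encodes SHP-2, by 0.30, and Inpp5d, which encodes SHIP-1, by -0.23, with none past the threshold. The Inpp5d difference came from p80HT replicate 3, and was -0.01 without it. Il4ra, the interleukin-4 receptor chain that CD300LF can associate with, differed by -0.26. Of the 15 adaptor and signalling genes 1 rose, 0 fell and 14 were not called, with a median of -0.17 beside -0.023 over all genes. Without p80HT replicate 3 the counts were the same and the median was -0.11. The gene that rose was Lcp2 (SLP-76), an adaptor of T cells and myeloid cells, by 1.29 (adjusted p = 0.335, limma). That call was lost without WT replicate 1 (1.24), WT replicate 2 (1.29), WT replicate 3 (1.33) or p80HT replicate 1 (1.46), and held at 0.82 without p80HT replicate 3.

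Among 22 paired receptors of myeloid cells, which likewise come in activating and inhibitory forms, 2 rose and 20 were not called. Both that rose are inhibitory. Lilrb4a was at 10.07, 10.16 and 10.48 in WT and at 11.28, 11.12 and 11.27 in p80HT, a rise of 0.99 (adjusted p = 0.109, limma) and of 0.96 without p80HT replicate 3. Sirpa, which binds CD47, was at 10.39, 10.29 and 10.27 in WT and at 11.29, 11.22 and 12.47 in p80HT, a rise of 1.34 (adjusted p = 0.263, limma). The Sirpa call was lost without WT replicate 1 (1.38), 2 (1.33) or 3 (1.32), and held at 0.94 without p80HT replicate 3. Lilrb4a, like Cd300lf, was even over the p80HT arrays, but 17 of the 22 genes were highest on p80HT replicate 3, beside 27.8% of all genes. The median of the list was 0.80, and 0.32 without that array.

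Of 9 other receptors related to CD300 in domain structure, among them the TREM genes, none rose and 1 fell, and without p80HT replicate 3 1 rose and 1 fell. Treml2 fell by 1.30 on the log2 scale (adjusted p = 0.152, limma), and by 1.04 without p80HT replicate 3. Among 15 other genes for receptors of phosphatidylserine and apoptotic cells and their bridging proteins none passed and the median was 0.71. Without p80HT replicate 3, 1 rose and the median was 0.20. The smallest p-values were those of Lrp1 and Havcr1, with log2 differences of 0.97 and 1.14, or 0.57 and 0.60 without p80HT replicate 3. On that array 12 of the 15 were highest, beside 27.8% of all genes.

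**Figure D3:**
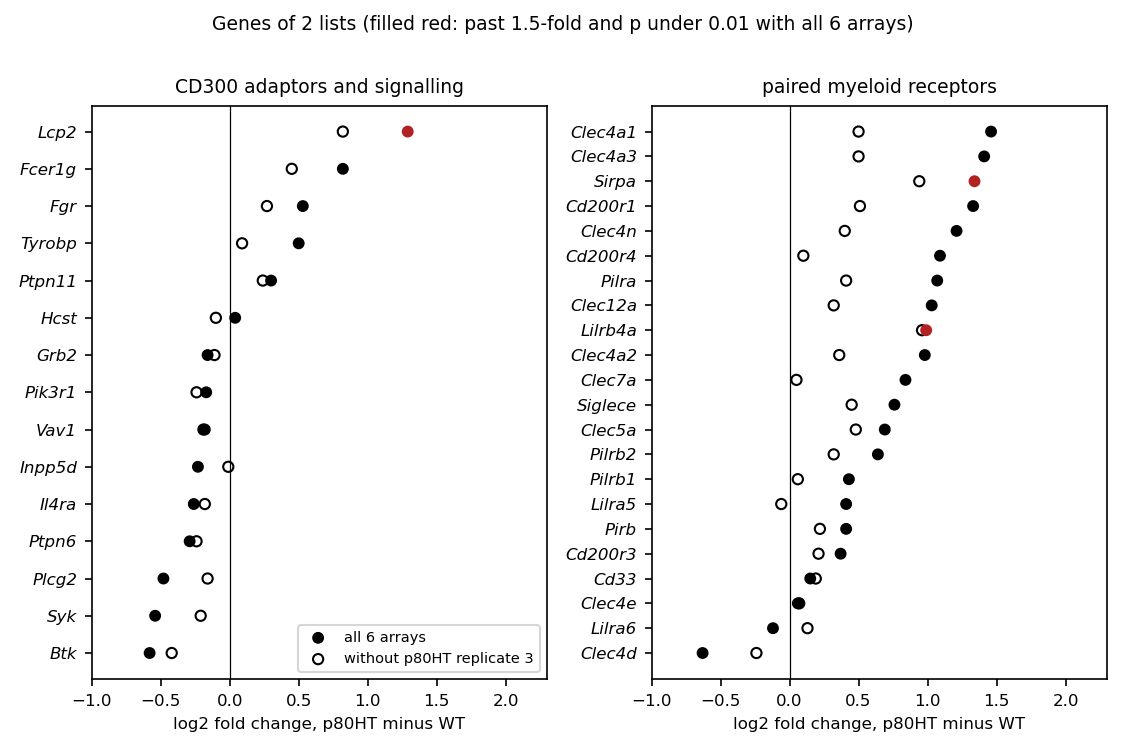
Log2 fold change, p80HT minus WT (horizontal axis), of the adaptor and signalling genes and of the paired myeloid receptors, with all 6 arrays (filled) and without p80HT replicate 3 (open). Red marks genes past the threshold. Lilrb4a keeps its value without that array (0.96), whereas Tyrobp drops to 0.09.

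Myeloid transcripts were present in the B220 selection, and their levels were set beside those of the members. In bulk RNA, more cells of a type and more RNA per cell cannot be told apart. Of 20 macrophage genes 3 rose and none fell, also without p80HT replicate 3, and the median was 0.71, or 0.27 without it. Their summed signal was 13.70 to 13.95 (log2) in WT and 14.33, 14.12 and 15.62 in p80HT. Lyz2 weighs heavily in it, as the brightest macrophage gene in WT. It was at 11.44, 11.77 and 12.45 in WT and at 12.59, 12.00 and 13.64 in p80HT, so its groups overlapped. By the sum the 3 p80HT arrays were above WT, with replicate 3 far above the other pair. On that array 15 of the 20 genes were highest, beside 27.8% of all genes. Cd300ld was also highest there, and Cd300lf was lowest of the p80HT group. The part of macrophage RNA in either value was not tested.

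Of the defining macrophage markers, Mpeg1 (perforin-2) rose by 1.41, with 10.08, 10.38 and 10.41 in WT and 11.44, 11.30 and 12.36 in p80HT, and by 1.08 without p80HT replicate 3. Adgre1, an adhesion receptor of macrophages, was at 9.24, 9.27 and 9.34 in WT and at 10.10, 10.31 and 9.61 in p80HT, a rise of 0.72. As for Cd300lf, its p80HT replicate 3 was the lowest p80HT array. The Adgre1 call was lost without WT replicate 1 (0.70), 2 (0.72) or 3 (0.75) and without p80HT replicate 1 (0.68) or 2 (0.57), and held at 0.92 without p80HT replicate 3. Vsig4, which also passed (0.62), was at background on all 6 arrays, as was Cd163. C1qa was at 12.03 on p80HT replicate 3 and at most 9.22 elsewhere.

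Of 10 monocyte genes 1 rose, Fcgr4 by 1.92, and 1 fell, Ms4a4c by 1.01 on the log2 scale. Without p80HT replicate 3, 4 rose and 1 fell. The Fcgr4 call did not hold without WT replicate 2 (1.89) or 3 (1.84), and held at 1.40 without p80HT replicate 3. The list's summed signal was 12.43 to 12.85 in WT and 12.56 to 13.52 in p80HT, so the sums overlapped. Ms4a4c weighs heavily in them, as the brightest monocyte gene in WT, at 11.55, 11.95 and 11.80. It was at 10.80, 10.58 and 10.91 in p80HT, whereas the median difference of the list was 0.73, or 0.62 without p80HT replicate 3. The neutrophil sum ran from 13.18 to 15.07 in WT and was 15.24, 14.70 and 12.22 in p80HT, and 0 of 14 neutrophil genes passed the threshold or had an unadjusted limma p under 0.05. Without p80HT replicate 3, 2 of them rose and the median turned from -0.22 to 0.73. Among them Mpo differed by 1.43 and Elane by 1.23, both high on p80HT replicates 1 and 2 alone, and by 2.28 and 2.10 without p80HT replicate 3. The spread over WT replicates 1, 2 and 3 differed between neutrophil genes. S100a8 was at 9.52, 10.85 and 11.78, Csf3r at 9.23, 9.76 and 10.02, and Elane at 7.69, 7.82 and 8.42.

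Of 12 conventional dendritic cell genes 1 rose, Itgae (CD103), and 2 rose without p80HT replicate 3. Itgae was at 6.99, 6.89 and 7.0 in WT, each at background, and at 8.06, 7.95 and 8.92 in p80HT. Of the defining markers, Itgax was at 9.15, 9.22 and 8.88 in WT and at 9.97, 9.85 and 11.36 in p80HT. Its difference of 1.31 did not pass with all 6 arrays and was 0.83 without p80HT replicate 3. Flt3, Zbtb46 and Clec9a differed by 0.24, 0.27 and 0.42, and by 0.39, 0.31 and -0.09 without p80HT replicate 3. Of 10 plasmacytoid dendritic cell genes none passed, and 1 fell without that array. The smallest p-values were those of Cd209d and Siglech, with log2 differences of -0.93 and -0.44. Of 13 mast cell, basophil and eosinophil genes none passed, and 5 rose without p80HT replicate 3. Cpa3 was at 6.49, 7.08 and 6.97 in WT, each at background, and at 7.90, 7.80 and 9.91 in p80HT, and Ms4a2 was at background on all arrays. Mcpt8 was at 6.60, 6.51 and 6.69 in WT, each at background, and at 8.22, 8.13 and 6.06 in p80HT. The list's summed signal was 10.98 to 11.26 in WT and 11.50 to 11.77 in p80HT. Epx, which defines eosinophils, was at background as well.

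Of 16 T cell genes 4 rose, Cd3e by 1.74 (1.64 and not called without WT replicate 1), Cd3g by 2.03 (1.96, 2.12 and 2.03 and not called without WT replicate 1, 2 or 3), Cd5 by 1.10 (0.99 and 1.10 and not called without WT replicate 1 or 3) and Cd28 by 0.92. When p80HT replicate 3 was left out, 12 of the 16 rose. The T cell sum was 13.14 to 13.40 in WT and 13.83 to 14.94 in p80HT. Its brightest gene in WT was Cd2, at 12.14 to 12.30, and at 12.54, 12.52 and 11.85 in p80HT. The Cd2 difference was 0.06, and 0.29 without p80HT replicate 3. Of 13 B cell genes none passed, and 2 fell without p80HT replicate 3. The smallest p-values were those of Cr2 and Fcer2a, with log2 differences of -1.99 and -1.80, or -1.13 and -1.0 without that array. Their sum was 16.34 to 16.54 in WT and 15.31 to 16.22 in p80HT.

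Of 9 erythroid genes 3 rose, Aqp1 by 1.13, Slc4a1 by 1.65 and Alas2 from background in WT (7.36, 7.20 and 7.18) to 8.18, 8.43 and 9.03 in p80HT. Their sum was 11.19 to 11.55 in WT and 12.64, 12.86 and 11.52 in p80HT. When p80HT replicate 3 was left out, 7 of the 9 rose. The Slc4a1 call did not hold without WT replicate 1 (1.67), 2 (1.68) or 3 (1.61) or without p80HT replicate 1 (1.48) or 2 (1.32). Of 8 plasma cell genes Prdm1 rose, by 0.80, and of 19 endothelial genes Pecam1, which B cells also express, fell by 0.92 on the log2 scale, with 1 other endothelial gene higher without p80HT replicate 3. None of 8 NK cell, 8 fibroblast or 8 gland genes passed, with sums on p80HT replicate 3 of 12.14, 14.02 and 16 against at most 11.24, 10.75 and 9.57 elsewhere. Without that array, 1 NK cell gene rose. Over the 231 listed genes other than the 6 members, 16 rose and 3 fell at the study's threshold, and 44 rose and 6 fell without p80HT replicate 3. At an adjusted limma p under 0.05 there were 0 listed genes with all 6 arrays, beside 11 of all 19938 genes. An unadjusted limma p under 0.05 was found for 61 listed genes, beside 2042 of all genes. Without p80HT replicate 3, 46 listed genes were higher and 8 lower at the adjusted cut-off. The share of all genes past that cut-off without p80HT replicate 3 is not given here, so nothing is read from the 46 and 8. The part of any of these cell types in the Cd300lf and Cd300a values was not tested.

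**Figure D4:**
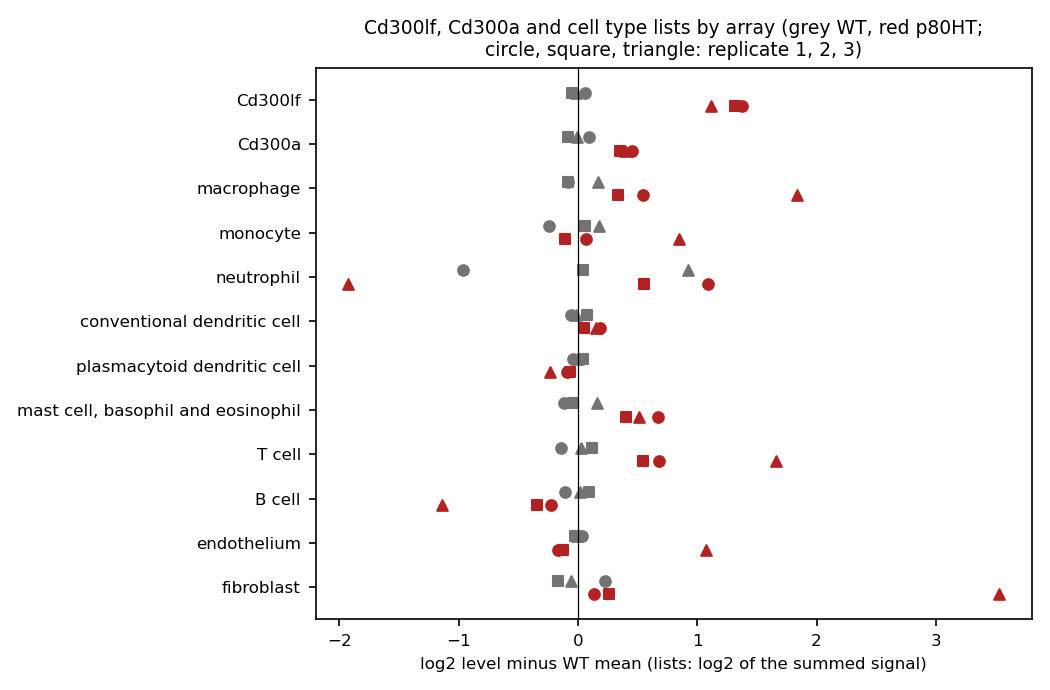
Log2 level minus the WT mean (horizontal axis) for Cd300lf, Cd300a and the summed signal of each cell type list, with WT arrays in grey, p80HT arrays in red and symbols for replicates 1, 2 and 3. The p80HT points of Cd300lf lie between 1.11 and 1.38, while those of the macrophage, T cell and fibroblast lists are spread out with p80HT replicate 3 farthest from WT.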

How the data were processed

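RNA of B220-selected spleen cells was measured on 1 array per mouse, 3 p80HT and 3 WT, grouped by GEO's labels. The deposited values are log2 probeset signals, for which the authors ran RMA within Partek Genomics Suite. Standard RMA quantile-normalizes the arrays, so values are relative to the other genes on an array. Versions, build and annotation are not given in the sources used here. Arrays give no read depth, and the number of mice limits the precision.

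Of 28853 probesets, the 21789 with 1 symbol in the platform annotation were kept, and each of 19938 genes was read at its brightest probeset by the mean of the 6 arrays. The groups were compared in R 4.3.3 by limma 3.58.1 (two-sided, through lmFit and eBayes, no block), with Benjamini-Hochberg adjustment over all genes. A call needs at least 1.5-fold and an unadjusted p under 0.01, the study's threshold. The study set it on p-values of an analysis of variance, whereas here it was set on limma p-values. These called 243 genes higher and 193 lower, against 119 and 77 by ordinary analysis of variance. Summed list levels are log2 of the summed linear signals, so the brightest genes of a list weigh most. The fit was tested on simulated data. Tables and figures were made with Python 3.11.15, pandas 2.3.3 and matplotlib 3.10.9.

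Members and gene lists were chosen with earlier results of these data known. Named genes are the members, every other CD300 gene, the genes in and 3 to each side of the cluster, the adaptors and phosphatases, up to 4 called genes per list or the 2 with the smallest p where none was called, the genes most like each member, and some of the defining markers as values. The other defining markers that were measured enter only the list counts, medians and sums. Il4ra, S100a8, Csf3r and Cd2 are named from the lists after their values were seen, as is Cd163.

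Alternatives were leaving out each array, the replicate number as a block, ordinary analysis of variance as in the methods, an intensity trend, array weights, quantile normalization, median centring, leaving out genes under the 25th or the 50th percentile of signal, averaging a gene's probesets and an adjusted p under 0.05. The study's qRT-PCR, cell line and tissue section measurements are not analysed here.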

Additional observations from a re-analysis of the deposited data

How the results depend on the processing

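Under the alternatives run, no member's difference changed sign except that of Cd300lb (0.05 without WT replicate 3), which was not above background on every array. Array weights, which give p80HT replicate 3 little weight, moved Cd300lf from 1.27 to 1.38, Cd300ld from 0.74 to 0.39, Cd300lg from 0.37 to 0.03, Cd300c from -0.16 to -0.05, Cd300lb from -0.06 to -0.18, Cd300e from 1.42 to 0.54 and Cd300c2 from 0.76 to 0.20. Median centring moved Cd300a from 0.40 to 0.31, Cd300c to -0.26 and Cd300lb to -0.15, and quantile normalization moved Cd300lb to -0.13. Over all genes, 243 rose and 193 fell. Without any 1 array 137 to 401 rose and 69 to 290 fell, both highest without p80HT replicate 3. With ordinary analysis of variance 119 rose and 77 fell, with array weights 478 and 422, with median centring 183 and 342, and at an adjusted p under 0.05 there were 10 and 1. Of the listed genes, 16 rose and 3 fell. Without any 1 array 9 to 44 rose and 3 to 6 fell, with ordinary analysis of variance 6 rose, with array weights 45 rose and 7 fell, and with median centring 5 fell. At an adjusted p under 0.05 0 rose and 0 fell. Without p80HT replicate 3 these were 46 and 8, for which no share over all genes is given here. The cause of these shifts was not tested.

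The labels do not say whether equal replicate numbers mark littermates. Across genes, deviations of same-numbered arrays from their group means correlated at 0.074, -0.241 and 0.069. With 3 arrays a group, 1 of them set apart, these values cannot settle whether the mice were paired. With the replicate number as a block, 38 listed genes rose and 6 fell.

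With 3 mice a group, small differences cannot be resolved. Cd300lb lay near background and the WT level of Cd300ld close to it, which limits what their differences show. Cd300ld3, Cd300ld4 and Cd300ld5 share probesets. Only p80HT mice with M-protein were measured, so the transgene and the M-protein cannot be told apart.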
